A study of Mus musculus with 6 samples.

Results

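The 10 genes described here belong to the integrated stress response and were measured in the kidney RNA of diabetic mice. They are the transcription factors Atf4, Atf5 and Ddit3, the feedback genes Trib3 and Ppp1r15a, and the amino acid and one-carbon enzymes Asns, Phgdh, Psat1, Shmt2 and Mthfd2. They were taken by gene symbol from the deposited tables, in which the 10 symbols matched 11 of 55401 gene identifiers. The second identifier of Ddit3 (ENSMUSG00000116429.1) had 0 counts in all 6 libraries, and all 10 genes were among the 17194 genes tested.

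Kidneys of 2 groups, Cdo1KKO/Sed and WT/Sed, were sequenced as poly(A)-enriched bulk RNA with 3 libraries in each, and each library is labelled as a separate biological replicate. All mice of both groups had type 1 diabetes induced by streptozotocin, a toxin of pancreatic beta cells. Cdo1KKO/Sed mice carry a Cdo1 knockout and WT/Sed mice are wild type at that gene. The study asked which pathways depend on Cdo1 of the renal tubule. Cdo1 is cysteine dioxygenase, the enzyme that oxidises cysteine on the way to taurine. The labels do not name the Cre driver or allele behind the knockout, do not spell out Sed, and state no ages or sexes. No group without diabetes was analysed here, and whole kidney holds many cell types, so that a change in the number of cells of a type and a change in RNA per cell cannot be told apart in any value below.

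The integrated stress response starts with kinases that phosphorylate the alpha subunit of the translation initiation factor eIF2, each sensing a different stress: unfolded protein in the endoplasmic reticulum (PERK, Eif2ak3), uncharged tRNA (GCN2, Eif2ak4), double-stranded RNA (PKR, Eif2ak2) and heme shortage or mitochondrial stress (HRI, Eif2ak1). General translation then falls, while the mRNA of ATF4 is translated more, and ATF4 with C/EBP partners switches on genes for amino acid synthesis and uptake, tRNA charging, and feedback. Tubule cells of the kidney use this pathway in nutrient shortage and in injury. Much of its control is at the level of translation and phosphorylation, which RNA levels do not measure.

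The libraries held 28145261 to 43872779 counts. Cdo1 itself had 109, 118 and 103 CPM (counts relative to library size, with library sizes scaled by the TMM method) in Cdo1KKO/Sed, against 181, 191 and 180.5 CPM in WT/Sed. Its level in Cdo1KKO/Sed was 59.8% of that in WT/Sed, a log2 fold change of -0.74 ± 0.06 (SE; edgeR adjusted p = 4.64e-06). By permutation of the 6 libraries (exact, 2-sided) the Cdo1 CPM gave p = 0.1, and 3 against 3 libraries can reach no smaller value. Of all genes tested, 37.4% changed at an adjusted p under 0.05, 18.9% higher and 18.5% lower, and the median log2 fold change was 0.01. Several marker lists of cell types and states moved with genotype. The summed CPM of 10 injured tubule markers (among them Havcr1 and Lcn2) was 9072 to 10876 in Cdo1KKO/Sed and 1147 to 1467 in WT/Sed, with 10 of 10 higher. That of 8 markers of proximal tubule segment S1 was 6440.0 to 6962 in Cdo1KKO/Sed and 10250.1 to 10432 in WT/Sed, with 7 of 8 lower. Macrophage and dendritic cell markers summed to 245 to 249.4 CPM in Cdo1KKO/Sed and 94.8 to 184 CPM in WT/Sed, with 5 of 9 higher and 1 lower. Red blood cell markers summed to 447 to 469 CPM in Cdo1KKO/Sed and 43.1 to 73.7 CPM in WT/Sed, with 7 of 7 higher and a median log2 fold change of 3.33. Markers of the thick ascending limb (4 of 6 higher, 1 lower) summed to 4068 to 4314 CPM in Cdo1KKO/Sed and 2394 to 3207 CPM in WT/Sed. Those of the distal convoluted tubule (5 of 6 higher) summed to 2716 to 2755 CPM in Cdo1KKO/Sed and 1733 to 2009 CPM in WT/Sed. The part of these shifts in the results below was not tested.

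Of the 10 genes, 8 rose in Cdo1KKO/Sed, Shmt2 fell, and Psat1 did not pass the test. The shares of all genes tested that rose (18.9%) and fell (18.5%) give the background for those counts. Their median log2 fold change was 0.86, with a range of -0.40 to 3.67, against 0.01 over all genes tested. In 9 of the 10 the CPM of the groups did not overlap, as was so for 50.3% of all genes tested.

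**Figure D1:**
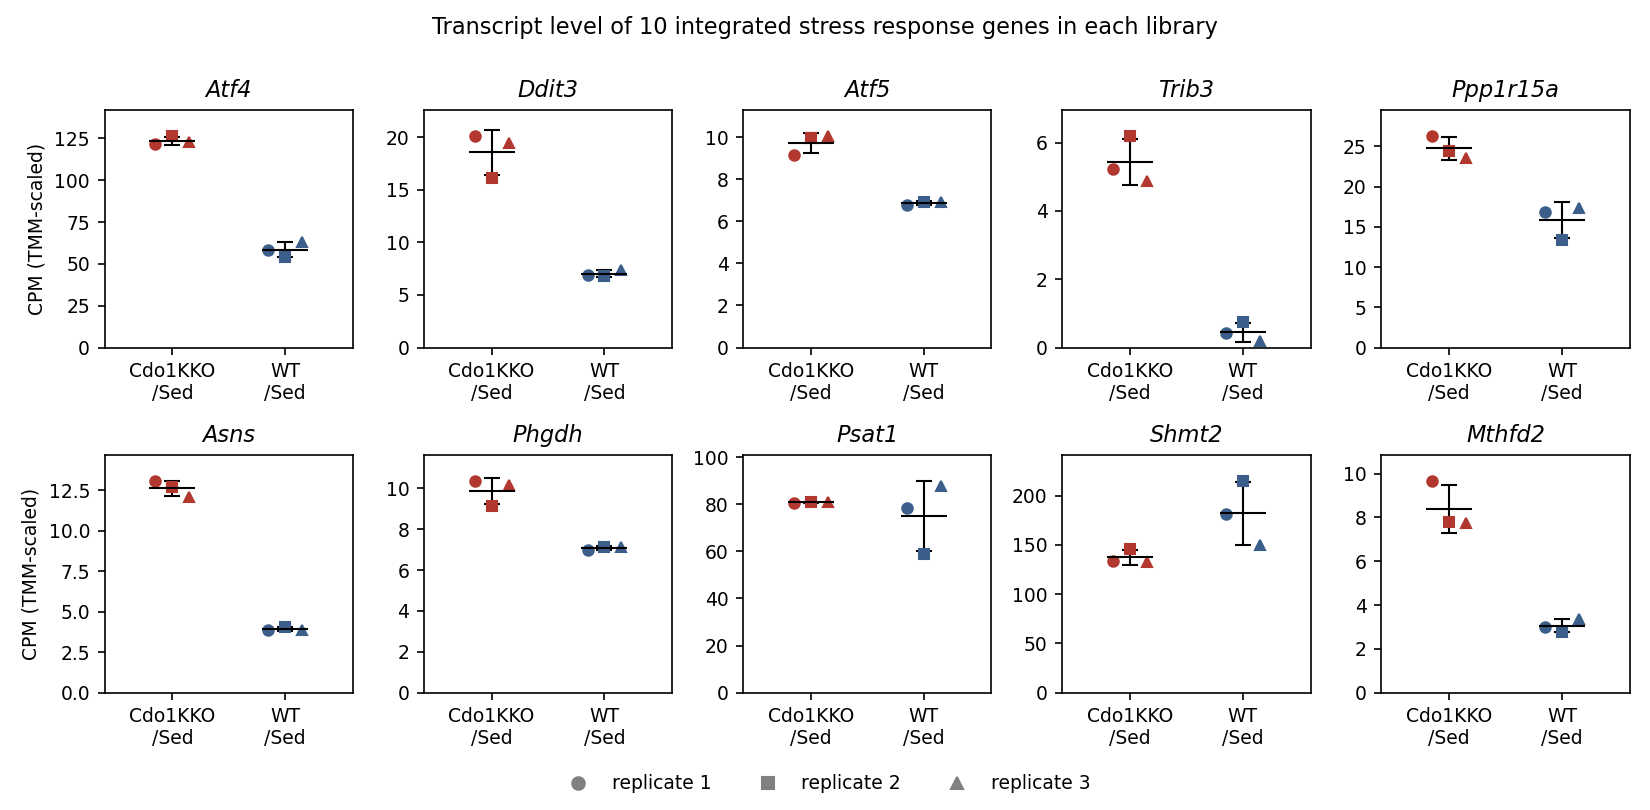
CPM of each of the 10 genes in every library, Cdo1KKO/Sed in red on the left and WT/Sed in blue on the right of each panel, with the mean and SD as lines (n = 3 each) and a symbol for each replicate number. The Cdo1KKO/Sed points lie above all WT/Sed points in 8 panels and below them for Shmt2, while the Psat1 points at a mean of 80.9 CPM lie inside the WT/Sed spread.

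Atf4, the central transcription factor, was measured at 122, 126 and 123 CPM in Cdo1KKO/Sed, against 58.5, 54.3 and 62.8 CPM in WT/Sed. Every Cdo1KKO/Sed library was well above every WT/Sed library, and the replicates of each group lay close together. The log2 fold change was 1.08 ± 0.06 (SE, 95% interval 0.94 to 1.21; edgeR adjusted p = 2.57e-07). Atf4 lies on chromosome 15 from 80255184 to 80257541 on the plus strand (GRCm38, GENCODE M21), with 3 exons in its principal transcript.

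Ddit3 encodes CHOP, a transcription factor of prolonged stress that is linked to cell death. It had 20.1, 16.1 and 19.4 CPM in Cdo1KKO/Sed, against 6.91, 6.78 and 7.39 CPM in WT/Sed. The lowest Cdo1KKO/Sed library, replicate 2, was still far above the highest WT/Sed library. The difference gave a log2 fold change of 1.40 ± 0.11 (edgeR adjusted p = 3.36e-06). Ddit3 lies on chromosome 10 from 127290774 to 127296288 on the plus strand and shares 68 exon bases with Mars1 (Mars in GENCODE M21) on the other strand. Mars1, a tRNA synthetase, had a log2 fold change of 0.13 ± 0.07 (adjusted p = 0.153).

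Atf5, a relative of ATF4 that is also controlled in translation and is known for the mitochondrial stress response, showed a smaller difference. It had 9.16, 9.96 and 10.1 CPM in Cdo1KKO/Sed, against 6.76, 6.93 and 6.91 CPM in WT/Sed. The WT/Sed values were nearly equal and none reached the Cdo1KKO/Sed range. On the log2 scale Atf5 rose by 0.50 ± 0.11 (edgeR adjusted p = 0.00359). Atf5 lies on chromosome 7 from 44812256 to 44816658 on the minus strand and shares 82 exon bases with Nup62 and Il4i1 on the other strand. Whether the counting used strand is not given in the sources used here, so for Atf5 and Ddit3 the reads of these shared bases cannot be told apart. The same holds for 12 exon bases that Ppp1r15a shares with Tulp2 and 32 that Shmt2 shares with Ndufa4l2.

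Of the feedback genes, Trib3 had the largest fold change of the 10. Its protein is a pseudokinase that binds ATF4 and CHOP and restrains their activity. Trib3 had 5.24, 6.19 and 4.86 CPM in Cdo1KKO/Sed, against 0.411, 0.750 and 0.195 CPM in WT/Sed. These CPM rest on 171, 246 and 223 counts in Cdo1KKO/Sed and on only 16, 20 and 8 counts in WT/Sed. The gene was thus low in WT/Sed, where the libraries also differed among themselves, and higher in all Cdo1KKO/Sed libraries. On the log2 scale Trib3 rose by 3.67 ± 0.34 (95% interval 2.92 to 4.41; edgeR adjusted p = 1.23e-05). Trib3 lies on chromosome 2 from 152337422 to 152344032 on the minus strand.

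Ppp1r15a encodes GADD34, the subunit that brings a phosphatase to eIF2alpha and so ends the response. It had 26.3, 24.4 and 23.5 CPM in Cdo1KKO/Sed, against 16.8, 13.3 and 17.4 CPM in WT/Sed. The groups did not overlap, and WT/Sed replicate 2 was the lowest library. Ppp1r15a had a log2 fold change of 0.64 ± 0.10 (edgeR adjusted p = 5.62e-04). Ppp1r15a lies on chromosome 7 from 45522916 to 45526268 on the minus strand. Its constitutive counterpart Ppp1r15b (CReP) went the other way, with 108, 106 and 105 CPM in Cdo1KKO/Sed and 122, 119.6 and 129 CPM in WT/Sed. The log2 fold change of Ppp1r15b was -0.22 ± 0.05 (adjusted p = 0.00581). The fall of Ppp1r15b was not called with scaling by library size alone or in the TPM values. In TPM it had 52.7, 50.4 and 51.0 in Cdo1KKO/Sed, against 49.6, 47.9 and 52.9 in WT/Sed. Ppp1r15a is also an early-induced gene in tissue handling and injury. The summed CPM of 22 immediate early genes was 729.9 to 745 in Cdo1KKO/Sed and 429 to 542 in WT/Sed, and its part in the Ppp1r15a result was not tested.

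Among the enzymes, Asns, which makes asparagine from aspartate and glutamine and is a classical ATF4 target, changed most. Asns had 13.0, 12.7 and 12.1 CPM in Cdo1KKO/Sed, against 3.88, 4.05 and 3.87 CPM in WT/Sed. Both groups were tight, and the SDs were 0.477 CPM in Cdo1KKO/Sed and 0.101 CPM in WT/Sed (n = 3 each). Its log2 fold change was 1.68 ± 0.11 (95% interval 1.44 to 1.93; edgeR adjusted p = 9.50e-07). Asns lies on chromosome 6 from 7675169 to 7693254 on the minus strand. Of 13 markers of acinar cells of the pancreas, a tissue rich in Asns, 9 had 0 counts in all 6 libraries, among them Prss2, Cpa1 and Pnlip. The summed level of the 13 was 48.8 to 53.1 CPM in Cdo1KKO/Sed and 63.4 to 77.8 CPM in WT/Sed, nearly all of it from Cela1.

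Mthfd2, the mitochondrial folate enzyme that is low in most adult tissues, was the second enzyme with a large difference. It had 9.65, 7.77 and 7.74 CPM in Cdo1KKO/Sed, against 3.01, 2.77 and 3.38 CPM in WT/Sed. Replicate 1 was the highest of the Cdo1KKO/Sed libraries, and no WT/Sed library came near the lowest of them. Mthfd2 rose by a log2 fold change of 1.45 ± 0.15 (edgeR adjusted p = 2.79e-05). Mthfd2 lies on chromosome 6 from 83305691 to 83325908 on the minus strand.

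The enzymes of serine synthesis differed less. Phgdh, which draws 3-phosphoglycerate from glycolysis in the first step, had 10.4, 9.16 and 10.2 CPM in Cdo1KKO/Sed, against 6.96, 7.12 and 7.13 CPM in WT/Sed. The groups did not overlap, and the log2 fold change was 0.48 ± 0.11 (edgeR adjusted p = 0.00483). Psat1, the aminotransferase of the second step, had 80.6, 80.9 and 81.1 CPM in Cdo1KKO/Sed, against 78.3, 58.9 and 87.9 CPM in WT/Sed. The Cdo1KKO/Sed libraries were nearly equal and lay within the WT/Sed range, which replicate 2 stretched downwards. The log2 fold change of Psat1 was 0.10 ± 0.13, with a 95% interval of -0.20 to 0.41 (edgeR adjusted p = 0.580), and it was -0.04 without WT/Sed replicate 2. Psph, the phosphatase that completes the pathway, had 12.1, 9.81 and 11.8 CPM in Cdo1KKO/Sed and 12.5, 13.8 and 12.6 CPM in WT/Sed (log2 fold change -0.20 ± 0.11, adjusted p = 0.170). Phgdh lies on chromosome 3 from 98313170 to 98339990 and Psat1 on chromosome 19 from 15904678 to 15947337, both on the minus strand.

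Shmt2, the mitochondrial enzyme that splits serine into glycine and a one-carbon unit, was the only one of the 10 to fall. It had 134, 146 and 132 CPM in Cdo1KKO/Sed, against 181, 215 and 149.8 CPM in WT/Sed. The lowest WT/Sed library, replicate 3, was close to the highest Cdo1KKO/Sed library, replicate 2. Its log2 fold change was -0.40 ± 0.12 (95% interval -0.69 to -0.12; edgeR adjusted p = 0.0351). Shmt2 lies on chromosome 10 from 127517123 to 127522444 on the minus strand. Its call was lost without any 1 Cdo1KKO/Sed library or without WT/Sed replicate 1, at adjusted p of 0.0572 to 0.104. Upper-quartile factors (adjusted p = 0.0536), scaling by library size alone (0.175) and the TPM values (0.338 and 0.343) lost it too. Across the WT/Sed libraries 1, 2 and 3 the summed CPM of 8 markers of proximal tubule segments S2 and S3 was 7147, 8154 and 6225, in the same order as Shmt2 and the opposite order to Psat1. In Cdo1KKO/Sed that sum was 4768, 5100 and 4599 CPM, again in the order of Shmt2 but not in the opposite order to Psat1. The S1 markers summed to 10432, 10385 and 10250 CPM in WT/Sed, not in the order of Shmt2. In Cdo1KKO/Sed the S1 markers summed to 6614, 6962 and 6440 CPM, in the order of Shmt2. Podocyte markers were even in Cdo1KKO/Sed, with sums of 278, 258 and 278 CPM, and uneven in WT/Sed, with sums of 295, 419 and 211 CPM. The part of such differences between the kidney pieces in the Shmt2 and Psat1 values was not tested.

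**Figure D2:**
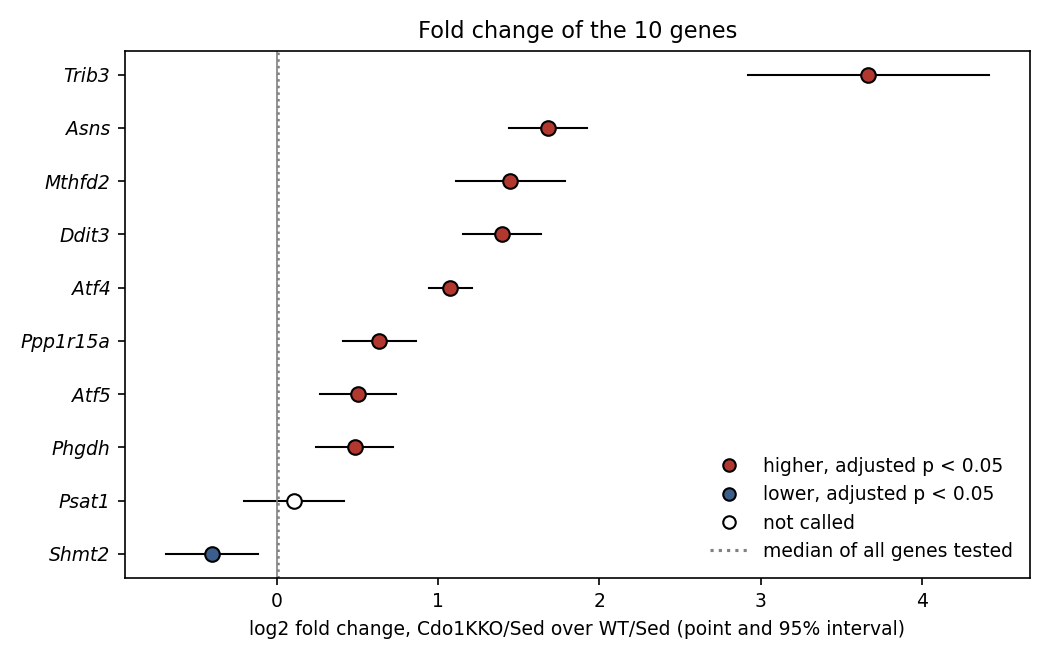
Log2 fold change of Cdo1KKO/Sed over WT/Sed for each of the 10 genes, with 95% intervals from the edgeR fit over 3 libraries in each group. Trib3 lies farthest from 0 at 3.67, the interval of Psat1 includes 0, and Shmt2 lies below 0 at -0.40.

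Levels of different genes were compared in the deposited TPM, which are corrected for gene length and library size. In Cdo1KKO/Sed, Atf4 led at 142 ± 1.17 TPM (SD, n = 3), followed by Shmt2 at 119 ± 4.93 TPM and Psat1 at 51.4 ± 0.646 TPM. In WT/Sed, Shmt2 led at 133 ± 21.9 TPM, followed by Atf4 at 56.4 ± 4.81 TPM and Psat1 at 40.1 ± 8.37 TPM. Atf4 and Shmt2 thus traded the top place, and within each group the libraries of the leading pair did not overlap. Below Psat1 came Ddit3 (29.4 TPM), Ppp1r15a (22.8 TPM), Atf5 (13.2 TPM), Asns (12.5 TPM), Phgdh (10.8 TPM), Trib3 (6.91 TPM) and Mthfd2 (6.51 TPM) in Cdo1KKO/Sed. In that group Atf5 did not differ from Asns, nor Trib3 from Mthfd2, beyond the spread of the libraries. The order in WT/Sed was Ppp1r15a (12.3 TPM), Ddit3 (9.32 TPM), Atf5 (7.82 TPM), Phgdh (6.46 TPM), Asns (3.26 TPM), Mthfd2 (1.99 TPM) and Trib3 (0.480 TPM), with no overlap between neighbours. Asns passed Phgdh, and Ddit3 passed Ppp1r15a, in the order of Cdo1KKO/Sed. Together the 10 genes took 415 ± 2.46 TPM in Cdo1KKO/Sed and 271 ± 6.66 TPM in WT/Sed.

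The scale mattered for the 2 genes with small differences. Psat1 had 51.6, 50.7 and 52.0 TPM in Cdo1KKO/Sed, against 41.8, 31.0 and 47.5 TPM in WT/Sed, so that its groups did not overlap in TPM. It still did not pass the test there. The log2 difference was 0.37 with a pseudocount of 1 (limma-trend adjusted p = 0.0560) and 0.38 with 0.1 (adjusted p = 0.0604). The share of all genes whose groups do not overlap in TPM was not computed. Shmt2 had 117, 125 and 116 TPM in Cdo1KKO/Sed, against 132, 155 and 111 TPM in WT/Sed, so that its groups did overlap in TPM. The TPM values carry no TMM scaling, and in them the median log2 difference of all genes tested was 0.19 with a pseudocount of 1.

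**Figure D3:**
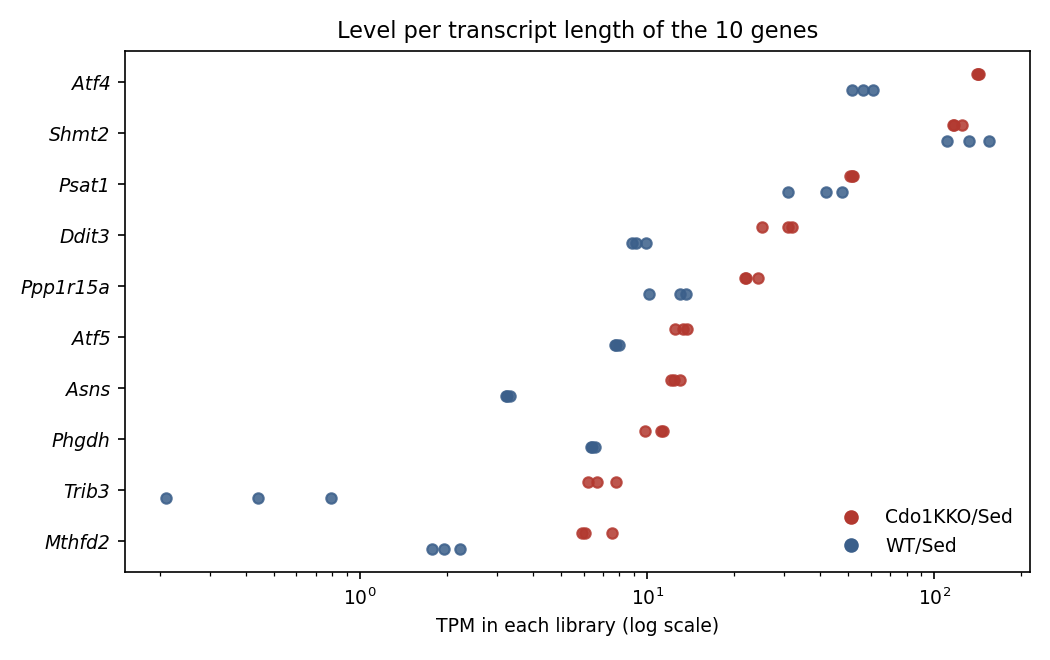
Deposited TPM of the 10 genes on a log axis, one point for each library, Cdo1KKO/Sed in red above WT/Sed in blue. Atf4 tops the Cdo1KKO/Sed order at 142 TPM and Shmt2 the WT/Sed order at 133 TPM, while Trib3 in WT/Sed is the lowest at 0.480 TPM.

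The ratio of each gene to Atf4 within a library does not depend on how libraries are scaled. Relative to Atf4, Trib3 was higher in Cdo1KKO/Sed by 2.71 on the log2 scale, Asns by 0.60, Mthfd2 by 0.37 and Ddit3 by 0.32. These genes differed by more than Atf4 did. Ppp1r15a was lower relative to Atf4 (-0.43), as were Atf5 (-0.58), Phgdh (-0.60), Psat1 (-0.95) and Shmt2 (-1.47). The mean log2 ratio of Shmt2 to Atf4 was 0.15 ± 0.05 in Cdo1KKO/Sed and 1.62 ± 0.36 in WT/Sed (SD, n = 3 each). For all 9 genes the ratios of the groups did not overlap. Atf4 itself differed by 1.08 on the log2 scale without overlap, so the ratio of a gene that did not change can separate too. Psat1 overlapped in CPM but not as a ratio. The share of all genes tested whose ratios to Atf4 do not overlap was not computed. The ratios are a description, since 3 libraries against 3 allow no exact p under 0.1.

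**Figure D4:**
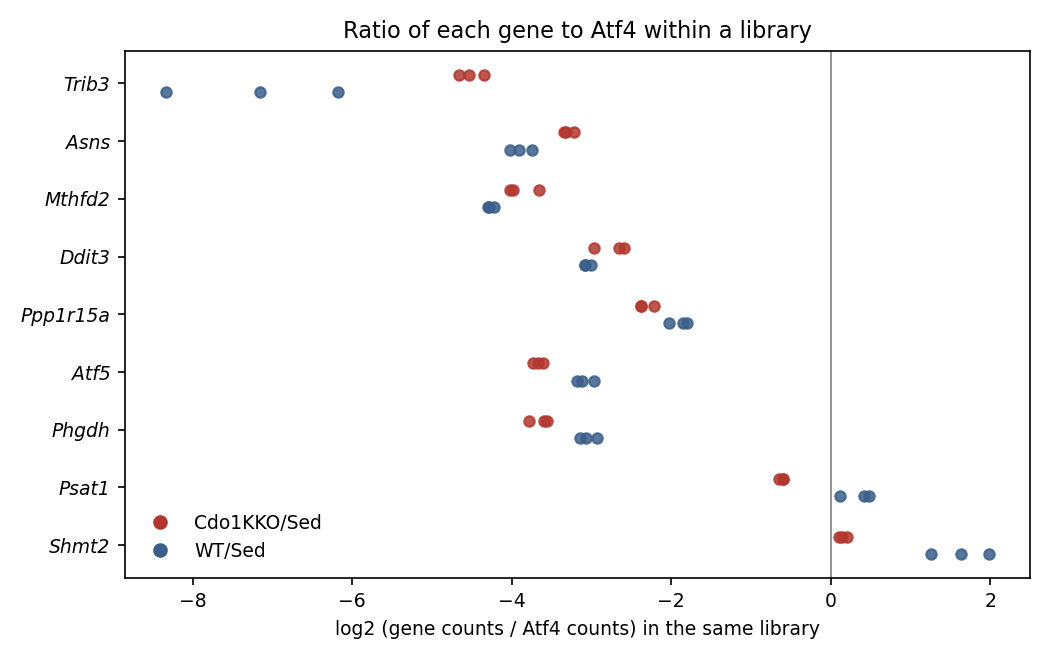
Log2 ratio of the counts of each gene to those of Atf4 in the same library, Cdo1KKO/Sed in red above WT/Sed in blue, one point for each library. Red points lie to the right of blue for Trib3, Asns, Mthfd2 and Ddit3 and to the left for the other 5 genes.

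ATF4 with a C/EBP partner binds a composite element, searched here as TGATGNAAN (N is any base) on both strands, in RefSeq promoter windows of 250 bases before to 50 bases after each gene start (GRCm38.p6). All 10 genes had a window. The letters were found in 2 of them, Asns and Trib3, the 2 with the largest fold changes, and in 3.95% of 32851 windows of all genes. The share was 2.30% of 15536 windows of the genes tested. The endoplasmic reticulum stress element of the ATF6 arm, searched on both strands in its full consensus, was in none of the 10 genes' windows and in 0.119% of all windows. These matches are descriptions of letters, and binding was not measured. The Asns match began 23 bases before the start and lies in what is known from the human gene as its nutrient-sensing element. The Trib3 match began at base 14 of the RefSeq transcript and read on the other strand. The outermost starts in GENCODE M21 differ from these RefSeq starts, so that the Trib3 match lies ahead of the GENCODE start and the Asns match behind it. The match with 10 bases on each side is shown for both genes, with the matched letters in capitals, at chr6:7693214-7693242 (Asns, minus strand) and chr2:152344029-152344057 (Trib3, minus strand).
Asns: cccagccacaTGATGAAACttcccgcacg
Trib3: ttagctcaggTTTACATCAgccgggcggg

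The 250 bases before the Asns start, on the minus strand of chromosome 6, are shown whole because this promoter carries the element close to the start, with the same letters in capitals.
Asns promoter: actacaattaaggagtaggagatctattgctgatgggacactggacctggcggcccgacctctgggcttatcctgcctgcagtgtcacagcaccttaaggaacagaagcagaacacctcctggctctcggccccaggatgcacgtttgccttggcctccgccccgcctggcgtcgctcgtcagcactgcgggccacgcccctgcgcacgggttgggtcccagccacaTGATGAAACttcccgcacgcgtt

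Frames ahead of the coding sequence were read from the annotated transcripts of the 10 genes. An ATG ahead of the coding start lets ribosomes start early, and in Atf4, Atf5, Ddit3 and Ppp1r15a such frames are known to make translation depend on eIF2 phosphorylation. In the longest principal transcript of GENCODE M21, Atf4 has a 5′ UTR of 594 bases with 3 upstream ATGs, which open frames of 36, 3 and 59 codons, and the last frame runs into the coding sequence out of frame. Atf5 has a similar layout, with 2 upstream ATGs in 373 bases and frames of 3 and 58 codons. Ddit3 has 2 in 186 bases, with frames of 34 and 31 codons that end before the coding start. Ppp1r15a has 7 in 764 bases, and the last, with a frame of 50 codons, runs into the coding sequence out of frame. Asns has 1, with a frame of 17 codons, and Psat1 has 1, whose frame of 66 codons runs into the coding sequence. Trib3, Phgdh, Shmt2 and Mthfd2 have none. An upstream ATG is common, in 52.5% of 13644 tested coding genes, while a frame that runs out of frame into the coding sequence is found in 16.4%. Among tested genes with a 5′ UTR of similar length, an upstream ATG is found in 92.8% for Atf4, 82.7% for Atf5 and 96.1% for Ppp1r15a. That share is 54.4% for Ddit3, 54.0% for Asns and 41.2% for Psat1.

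Upstream of ATF4, the kinases of eIF2alpha differed in direction. The transcripts of 3 of the 4 rose. Eif2ak2 (PKR) had 37.7, 34.8 and 36.7 CPM in Cdo1KKO/Sed, against 18.1, 17.7 and 19.6 CPM in WT/Sed, a log2 fold change of 0.98 ± 0.07 (edgeR adjusted p = 1.78e-06). Eif2ak4 (GCN2) and Eif2ak3 (PERK) rose by 0.39 ± 0.10 (adjusted p = 0.00848) and 0.28 ± 0.06 (adjusted p = 0.00445). Eif2ak1 (HRI) fell, with 63.3, 65.7 and 63.9 CPM in Cdo1KKO/Sed and 75.9, 74.7 and 80.7 CPM in WT/Sed (-0.26 ± 0.05, adjusted p = 0.00268). That fall was not called when libraries were scaled by size alone or in the TPM values. Of 18 genes for eIF2, its exchange factor eIF2B and regulators of eIF2alpha phosphorylation, 3 rose and 2 fell, with a median log2 fold change of -0.01. Those shares are not above the 18.9% of all genes tested that rose and the 18.5% that fell. The 3 were Eif2b3 (0.56 ± 0.09), Eif2s2 (0.31 ± 0.05) and Eif2s3x (0.27 ± 0.09), and the 2 were Eif2b1 (-0.25 ± 0.06) and Ppp1r15b. With library size only 9 of the 18 rose and 0 fell, while 5513 of all 17194 genes tested rose and 1685 fell. With the TPM values 11 rose and 0 fell, while 6784 or 6660 of all genes tested rose and 1246 or 1224 fell (by pseudocount). RNA levels of these genes do not measure how much eIF2alpha was phosphorylated.

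Many other known targets of ATF4 rose as well. Of 31 tested, 18 rose and 2 fell, against 18.9% and 18.5% of all genes tested. The median log2 fold change of the 31 was 0.31. The count of the 31 that rose was 15 to 22 in all alternatives tried. The 22 came from the TPM values, in which 6784 or 6660 of the 17194 genes tested rose, depending on the pseudocount. Gdf15, a secreted stress hormone, had 20.5, 21.4 and 23.8 CPM in Cdo1KKO/Sed, against 4.32, 4.91 and 3.72 CPM in WT/Sed (log2 fold change 2.36 ± 0.12, edgeR adjusted p = 1.26e-07). Slc7a11, the cystine importer, had 4.90, 3.42 and 5.995 CPM in Cdo1KKO/Sed, against 0.154, 0.225 and 0.146 CPM in WT/Sed (4.79 ± 0.33, adjusted p = 1.29e-06). Aldh18a1, the first enzyme of proline synthesis, had 6.06, 5.73 and 6.26 CPM in Cdo1KKO/Sed, against 1.82, 1.76 and 1.85 CPM in WT/Sed (1.73 ± 0.16, adjusted p = 9.59e-06). All these groups were wide apart. In contrast, Cth, which makes cysteine from cystathionine, had 113, 116 and 113 CPM in Cdo1KKO/Sed, against 198, 197 and 182 CPM in WT/Sed (-0.75 ± 0.05, adjusted p = 1.37e-06). The other target that fell was the growth factor Vegfa (-0.52 ± 0.06, adjusted p = 4.65e-05).

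Among targets singled out after their values were seen, Chac1, which degrades glutathione, had 2.88, 3.27 and 3.14 CPM in Cdo1KKO/Sed, against 0.437, 0.525 and 0.511 CPM in WT/Sed (2.66 ± 0.24, edgeR adjusted p = 9.65e-06). Slc7a5, a leucine transporter, had 4.32, 4.85 and 5.32 CPM in Cdo1KKO/Sed, against 1.03, 0.525 and 1.36 CPM in WT/Sed (2.27 ± 0.27, adjusted p = 7.52e-05). Fgf21, a hormone of fasting and stress, had 0.367, 0.503 and 0.480 CPM in Cdo1KKO/Sed and 0 counts in all WT/Sed libraries. Against the limit of 3 counts over the 3 WT/Sed libraries, 0.0281 CPM, Fgf21 was at least 16-fold higher. Not every target followed: Pck2 (0.00 ± 0.09), Ddit4 (-0.09 ± 0.30) and Sesn2 (-0.21 ± 0.12) did not pass the test.

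The composite element was also searched in these targets, some of which are known as targets because of it. Of the 25 targets with a window, 10 held it, and 6 of these 10 rose (Atf3, Chac1, Fgf21, Nupr1, Slc1a4 and Slc7a11), as did 8 of the 15 without it. Over all genes tested with a window, 28.2% of the 337 with the element rose and 21.1% fell, against 20.13% and 20.01% of all 12191. The sites of 5 targets that rose are shown, followed by Pck2 and Pycr1, which did not pass the test, with the matched letters in capitals. They lie at chr2:119351038-119351066 (Chac1, plus strand), chr1:191183426-191183454 (Atf3, minus), chr3:50443661-50443689 and chr3:50443643-50443671 (Slc7a11, minus), chr7:45615612-45615640 (Fgf21, minus), chr7:126625563-126625591 (Nupr1, minus), chr14:55540152-55540180 (Pck2, plus) and chr11:120643833-120643861 (Pycr1, minus).
Chac1: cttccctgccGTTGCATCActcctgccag
Atf3: ccttctcgcaCTTGCATCAccaagtccgc
Slc7a11, first site: ctcatgtggcTGATGCAAAcctggagaat
Slc7a11, second site: acctggagaaTTTGCATCAtcatgcagcc
Fgf21: agacccccccATTGCATCAtccgtccagg
Nupr1: aaagggccagATTGCATCAgacagggctt
Pck2: agccttcaaaGTTACATCAgtatcttaca
Pycr1: gccctgtgtaTGATGCAATgcacaaggct
Most of these sites read on the strand opposite to the gene, while the Asns, Pycr1 and first Slc7a11 sites read along it.

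Genes that charge tRNA rose in small steps. Of 20 cytosolic aminoacyl-tRNA synthetases, many of which are ATF4 targets, 12 rose and 0 fell, against 18.9% and 18.5% of all genes tested. The median log2 fold change of the 20 was 0.20. By edgeR 0 of the 20 fell at an unadjusted p under 0.05, and by DESeq2 and limma-voom 0 fell at an adjusted p under 0.05. With the TPM values all 20 rose, as did 6784 or 6660 of the 17194 genes tested, depending on the pseudocount. Vars had 42.5, 45.2 and 42.4 CPM in Cdo1KKO/Sed, against 30.7, 29.1 and 30.6 CPM in WT/Sed (0.52 ± 0.06, edgeR adjusted p = 6.12e-05). Gars (0.46 ± 0.06), Wars (0.49 ± 0.07) and Rars (0.41 ± 0.06) moved by similar amounts. Each of these differences was well under that of Atf4.

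The wider serine, glycine and folate pathway moved mostly in the direction opposite to Phgdh and Mthfd2. Of 24 such enzymes and carriers tested, 16 fell and 2 rose, against 18.5% and 18.9% of all genes tested. The median log2 fold change of the 24 was -0.31. The count that fell was 10 when libraries were scaled by size alone and 8 in the TPM values. Of all 17194 genes tested, 1685 fell by size alone and 1246 or 1224 in the TPM values, depending on the pseudocount. The 2 that rose act with Mthfd2 in mitochondria. Mthfd1l, which releases formate, had 8.64, 9.05 and 9.13 CPM in Cdo1KKO/Sed, against 2.08, 1.199 and 1.87 CPM in WT/Sed (2.35 ± 0.19, edgeR adjusted p = 3.46e-06). Aldh1l2, which oxidises formyl-folate, had 3.98, 3.62 and 3.42 CPM in Cdo1KKO/Sed, against 1.16, 1.499 and 2.26 CPM in WT/Sed (1.15 ± 0.25, adjusted p = 0.00376). The serine carrier of mitochondria Sfxn1 (-0.47 ± 0.05) and the glycerate kinase Glyctk (-0.65 ± 0.07) fell. Shmt1, the cytosolic counterpart of Shmt2, was named after its values were seen. It had 52.6, 53.5 and 53.1 CPM in Cdo1KKO/Sed, against 69.6, 59.3 and 82.0 CPM in WT/Sed (-0.41 ± 0.10, adjusted p = 0.0121). Proximal tubule cells are rich in many of these enzymes, and 7 of 8 markers of segments S2 and S3 were lower, with sums of 4599 to 5100 CPM in Cdo1KKO/Sed and 6225 to 8154 CPM in WT/Sed. The part of that fall in the enzyme levels was not tested.

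Enzymes around Asns differed in direction. Of 16 genes of asparagine, aspartate, glutamate and proline metabolism, 4 rose and 6 fell, against 18.9% and 18.5% of all genes tested. With library size only 7 rose, as did 5513 of the 17194 genes tested. Prodh, which degrades proline, had 112, 126 and 111 CPM in Cdo1KKO/Sed, against 239.8, 241 and 235 CPM in WT/Sed (-1.04 ± 0.06, edgeR adjusted p = 3.26e-07). Asl of the arginine pathway fell by 0.72 on the log2 scale (SE 0.05). Glud1, glutamate dehydrogenase, rose by 0.53 ± 0.05. Aldh18a1, described above, makes proline, so that the first enzyme of proline synthesis rose while the first of its breakdown fell.

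Genes linked to CHOP and the partners of ATF4 were counted next. Of 7 genes linked to CHOP in cell death, 2 rose and 0 fell, the survival factor Bcl2 (0.63 ± 0.09, edgeR adjusted p = 2.80e-04) and the BH3 gene Pmaip1 (0.48 ± 0.10, adjusted p = 0.00352). With 18.9% of all genes tested higher, 2 of 7 is close to the background. Bax (0.25 ± 0.11, adjusted p = 0.0895) and Bbc3 (0.61 ± 0.27, adjusted p = 0.0999) did not pass the test. By edgeR 0 of the 7 fell at an unadjusted p under 0.05, and by DESeq2 and limma-voom 0 fell at an adjusted p under 0.05. With library size only 6 of the 7 rose, as did 5513 of the 17194 genes tested. CHOP is known to repress Bcl2 in cultured cells, while here both transcripts were higher in Cdo1KKO/Sed. Of 15 bZIP partners of ATF4 and CHOP, 7 rose and 0 fell by edgeR, with 1 lower at an unadjusted p under 0.05. At an adjusted p under 0.05 the count that fell was 1 with DESeq2 and without WT/Sed replicate 2 or 3 and 0 with limma-voom. In the TPM values 11 rose, as did 6784 or 6660 of the 17194 genes tested, depending on the pseudocount. Atf3, also a target of ATF4, had 9.34, 9.71 and 10.4 CPM in Cdo1KKO/Sed, against 2.11, 3.94 and 1.56 CPM in WT/Sed (2.00 ± 0.28, adjusted p = 6.60e-04). Cebpd, a C/EBP factor of acute inflammation, had 17.5, 23.4 and 17.9 CPM in Cdo1KKO/Sed, against 4.55, 6.37 and 2.85 CPM in WT/Sed (2.12 ± 0.27, adjusted p = 8.96e-04). Nfe2l2 (NRF2) rose by 0.67 ± 0.05 and Nfe2l1 by 0.39 ± 0.06.

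The neighbouring stress pathways differed. In the ATF6 and XBP1 arm of the unfolded protein response, 14 of 19 genes rose and 1 fell, with a median log2 fold change of 0.44. The background for this and each further list of the paragraph is 18.9% of all genes tested higher and 18.5% lower. Hspa5 (BiP), the main chaperone of the endoplasmic reticulum, had 1245, 1215 and 1339 CPM in Cdo1KKO/Sed, against 557, 561 and 562 CPM in WT/Sed (1.18 ± 0.05, edgeR adjusted p = 3.49e-08). Creld2 (1.10 ± 0.06) and Xbp1 (0.99 ± 0.05) rose by amounts near that of Atf4. Herpud1, a gene of the degradation machinery, had 167, 171 and 165 CPM in Cdo1KKO/Sed, against 299.98, 286 and 309 CPM in WT/Sed, in the opposite direction (-0.83 ± 0.05, adjusted p = 5.15e-07). The count that fell was 2 without WT/Sed replicate 3. In contrast, 8 of 12 mitochondrial chaperones and proteases fell and 0 rose, with a median log2 fold change of -0.22. Lonp1, a protease of the matrix, had 107, 109 and 105 CPM in Cdo1KKO/Sed, against 128, 125 and 130.1 CPM in WT/Sed (-0.26 ± 0.05, edgeR adjusted p = 0.00167). Spg7 (-0.42 ± 0.05), Clpx (-0.34 ± 0.06) and Hspd1 (-0.20 ± 0.05) fell as well. By edgeR 0 rose at an unadjusted p under 0.05, and by DESeq2 and limma-voom 0 rose at an adjusted p under 0.05. These falls were small, and the count was 2 when libraries were scaled by size alone, 1 in the TPM values and 4 without Cdo1KKO/Sed replicate 1. Over all 17194 genes tested 1685 fell by size alone and 1246 or 1224 in the TPM values. Of 21 immediate early genes tested, 11 rose and 2 fell, and 4 fell without WT/Sed replicate 3 or with no filter. Egr1 had 57.7, 52.7 and 50.9 CPM in Cdo1KKO/Sed, against 14.8, 18.9 and 13.9 CPM in WT/Sed (1.77 ± 0.11, adjusted p = 1.04e-06). Dusp1, a phosphatase of the same early class, had 41.0, 47.4 and 43.5 CPM in Cdo1KKO/Sed, against 128, 132 and 118 CPM in WT/Sed (-1.52 ± 0.07, adjusted p = 4.28e-08).

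**Figure D5:**
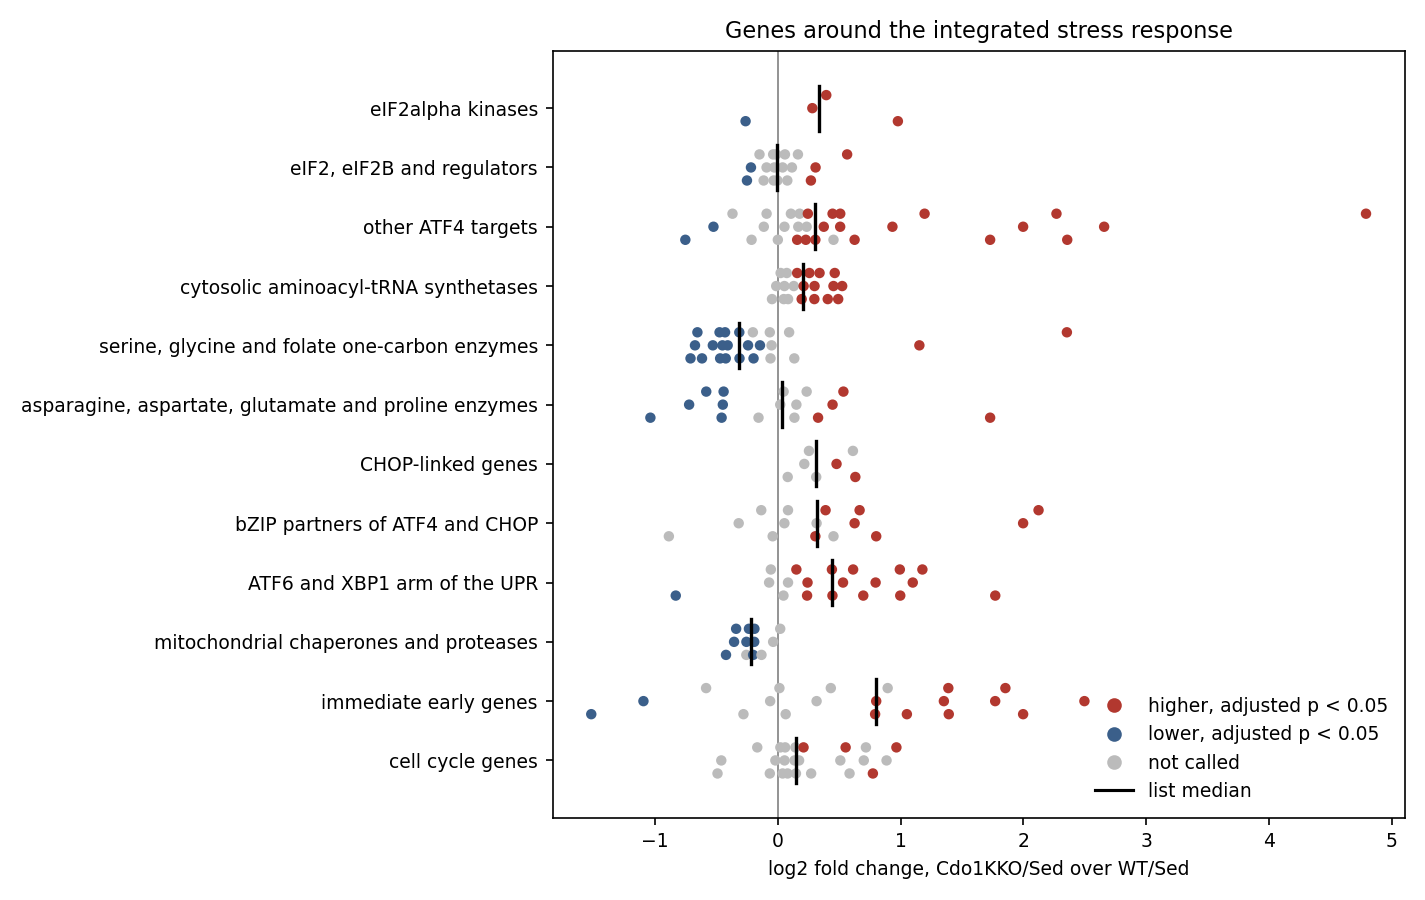
Log2 fold change of Cdo1KKO/Sed over WT/Sed for each tested gene of the 12 lists, one point for each gene, red or blue where it was higher or lower at an adjusted p under 0.05 and grey otherwise, with the list's median as a black bar. Fgf21 and Fosl1, with 0 counts in all WT/Sed libraries, are left out. The serine, glycine and folate list and the mitochondrial list lie mostly below 0, and the tRNA synthetases and the ATF6 and XBP1 arm mostly above it.

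The genes whose pattern over the 6 libraries was most like that of Atf4 were sought among 8982 other coding genes with a mean of at least 10 CPM, by the root mean square difference of the mean-centred log2 CPM. They were Timd2 (0.0220), Nrg1 (0.0332), Tmem43 (0.0396), Cast (0.0412) and Tapbpl (0.0455). All 5 had log2 fold changes of 1.02 to 1.11. With 2 groups of 3 libraries the measure is set mainly by the size of the difference between groups. Of the 10 genes above, Ddit3 had 213 genes nearer to Atf4, Ppp1r15a 307, Psat1 2560 and Shmt2 7846, each count including Atf4 itself. The others had a mean under 10 CPM.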

How the data were processed

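Kidney RNA of 6 diabetic mice was measured in 6 libraries, 3 Cdo1KKO/Sed and 3 WT/Sed, grouped by their labels. Per the labels' protocols, poly(A) RNA was selected with oligo(dT) beads, and per the submitters' processing notes reads were handled with fastp 0.23.4 on the builds GRCm38 and mm10. For the aligner, counter, annotation and strand setting nothing is given in the labels or notes. The authors deposited whole-number counts per gene and, in a second table, TPM for the same genes.

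The counts were fitted in R 4.3.3 with edgeR 4.0.16: filterByExpr, TMM scaling, robust quasi-likelihood F tests on genotype alone, and Benjamini-Hochberg adjustment over all 17194 genes with a threshold of 0.05. The SE is the absolute log2 fold change over the square root of F. The libraries held 28145261 to 43872779 counts, and the reads carry no molecular identifiers. Limits from counts of 0 cover counting error only and leave out variation between animals. Positions and transcripts came from GENCODE M21, which holds 55141 of the 55401 identifiers, and promoters from RefSeq (GRCm38.p6). The 5 figures were drawn in Python 3.11.15 with matplotlib 3.10.9. The fit was also run on simulated counts, with far fewer changed genes than were called here and the same spread in both groups. That run does not measure the error of the fit in these data.

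The 10 genes and all lists (12 of functions, 19 of cell type markers) were chosen with earlier results of these data known. The text names the 10 genes, Cdo1, up to 4 genes with the smallest p in each list, and the 5 genes most like Atf4. A gene that this rule names is not reported here. Genes named beyond this rule, chosen with their values in view, were Chac1, Slc7a5, Fgf21, Vegfa, Pck2, Ddit4, Sesn2, Nupr1, Slc1a4, Pycr1, Eif2s3x, Shmt1, Psph, Mars1 and Fosl1. Alternatives were DESeq2 1.42.0, scaling by library size alone or by RLE or upper-quartile factors, limma-voom and limma-trend (limma 3.58.1, the latter on log2 TPM with a pseudocount of 1 or 0.1), no filter, a filter of 1 CPM in 3 libraries, a fit without robust shrinkage, a replicate block, and each library left out.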

Additional observations from a re-analysis of the deposited data

How the results depend on the processing

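The calls of Atf4, Atf5, Ddit3, Trib3, Asns, Phgdh, Mthfd2 and Ppp1r15a kept their direction and stayed under an adjusted p of 0.05 in all 17 alternatives. The fall of Shmt2 was lost in 8 of them, so that 0 of the 10 genes fell under upper-quartile factors, scaling by library size alone and the TPM values at either pseudocount, and 0 to 1 when 1 library was left out. The Psat1 log2 fold change was -0.037 (without WT/Sed replicate 2) to 0.23 when 1 library was left out. It was 0.27 with scaling by library size alone and 0.37 and 0.38 in the TPM values. Psat1 passed the test in none of the 17 alternatives. Over all genes tested, 5513 rose and 1685 fell after scaling by library size alone, 6784 rose and 1246 fell with log2(TPM + 1), and 6660 rose and 1224 fell with log2(TPM + 0.1). In these 3 settings the all-gene median on the log2 scale was 0.18, 0.19 and 0.25, and 76.6%, 84.5% and 84.5% of the calls were higher, against 50.5% in the fit reported. With a replicate block 3117 genes rose and 3029 fell, and the block changed no call of the 10 genes. The deviations of same-numbered libraries correlated at -0.0022, 0.0105 and 0.0125, so no deviation shared by number was seen. That check cannot tell whether the numbers pair the animals, because paired animals need not share a deviation. With 3 libraries in each group, small differences such as that of Psat1 could not be told from 0, and in WT/Sed the Trib3 level rests on 8 to 20 counts for each library.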

Other observations

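Genes of the cell cycle were compared as a further list, since ATF4 supplies amino acids and one-carbon units to dividing cells. Of 24 tested, 4 rose and 0 fell in Cdo1KKO/Sed, with a median log2 fold change of 0.15. The share that rose is near the 18.9% of all genes tested that rose. By edgeR 0 fell at an unadjusted p under 0.05, and by DESeq2 5 rose and 0 fell at an adjusted p under 0.05. Pcna, the clamp of DNA polymerase, had 39.8, 39.8 and 38.0 CPM in Cdo1KKO/Sed, against 33.3, 35.6 and 32.9 CPM in WT/Sed (0.21 ± 0.06, edgeR adjusted p = 0.0214). Mcm3, a subunit of the replicative helicase, had 3.98, 5.06 and 3.16 CPM in Cdo1KKO/Sed, against 2.57, 2.40 and 1.31 CPM in WT/Sed (0.97 ± 0.27, adjusted p = 0.0170). Birc5 (0.77 ± 0.25) and Cenpe (0.55 ± 0.19) were the other 2. The count that rose was 0 without Cdo1KKO/Sed replicate 1 or replicate 2, and 2 without Cdo1KKO/Sed replicate 3 or WT/Sed replicate 1 or replicate 2. Mki67 had 5.49 ± 0.252 CPM in Cdo1KKO/Sed and 5.19 ± 2.50 CPM in WT/Sed (SD, n = 3 each; adjusted p = 0.910 by edgeR). Mki67 was named after its values were seen.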
